A study of Mus musculus with 14 samples.

Results

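The outer ends of the mouse autosomes were examined in peak lists from neural stem cells that carry a tagged histone H3.3. For each of chromosomes 1 to 19 the highest peak end over all 12 lists was found, and every peak that starts within 5 Mb before it was kept. These distal windows held 29909 of the 557412 peaks of the series, 18963 of 350680 FLAG peaks and 10946 of 206732 H3K4me3 peaks. The rest of the same 19 chromosomes, from the lowest peak start to the window, held 517854 peaks and served for comparison. The rule uses position only, so peak density, width and overlap were free to differ between the windows and the rest.

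Histone H3.3 is a variant of histone H3 that is placed on DNA throughout the cell cycle, mainly at active genes, promoters and enhancers, and also at telomeric and centromeric repeats. H3f3a is one of the genes that encode it, and the K27M substitution, which replaces lysine 27 by methionine, is the hallmark mutation of diffuse midline gliomas of children. Trimethylation of lysine 4 of histone H3 (H3K4me3) marks active promoters. Mouse autosomes carry the centromere at the end where numbering starts, so the windows lie next to the telomere at the other end. Telomeric repeats themselves are not resolved in peak lists.

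All cultures were neurospheres grown from the hindbrain of mouse embryos at day E15.5 of gestation, and all carried Nestin-cre, which switches on a silent (LSL) allele in neural progenitors. In 3 cultures the genotype was Nestin-cre; H3f3aLSL-K27M-Tag/+, called K27M-Tag here. In the 3 control cultures it was Nestin-cre; H3f3aLSL-WT-Tag/+, called WT-Tag, so both groups express a tagged H3.3 from 1 allele beside an untagged one. Each culture gave 1 list for the FLAG tag and 1 for H3K4me3, which makes 4 groups of 3 lists. All cultures were labelled female except WT-Tag replicate 3, which was male, and only autosomes are counted here. A culture with no tagged histone was not analysed, so the FLAG background is unknown. The labels do not say whether the cultures of a group came from different embryos, so p-values measure the spread between cultures only. The lists hold positions without genes, so markers of neural stem cells could not be read.

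The background coverage recovered from the lists was 2.77 to 3.6 reads per position in the 12 libraries, with overlapping ranges in both genotypes. Local background around the peaks did differ. In the distal windows, the share of FLAG peaks whose local background exceeded 1.5 times that of their list was 8.10% ± 1.95 (SD, n = 3) in K27M-Tag against 20.0% ± 3.62 in WT-Tag. For distal H3K4me3 peaks these shares were 11.1% ± 1.54 and 38.2% ± 0.687. In the rest of the chromosomes they were 7.35% and 16.1% for FLAG and 10.0% and 33.6% for H3K4me3. The labels list 1 composite input per genotype, and the sources used here do not say which control each list had. If the input of a genotype served for all its lists, control and genotype cannot be told apart in the peak counts. The part of local background in the genotype differences below was not tested.

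FLAG peaks were about 1.65 times as dense in the distal windows of K27M-Tag cultures as in those of WT-Tag cultures. The K27M-Tag lists held 4140, 3100 and 4557 distal FLAG peaks and the WT-Tag lists 1955, 2661 and 2550. Every K27M-Tag list was above every WT-Tag list, at 41.4 ± 7.90 against 25.1 ± 4.00 peaks per Mb (SD, n = 3). Distal H3K4me3 peaks numbered 1900, 1857 and 2014 in K27M-Tag against 1727, 1740 and 1708 in WT-Tag, or 20.2 ± 0.854 against 18.2 ± 0.169 peaks per Mb. These groups were also apart, with a ratio of 1.12. For both antibodies the exact permutation p was 0.1, the smallest that 3 cultures against 3 can give (adjusted p = 0.138 over 18 such tests), so no comparison of this kind can pass 0.05. With the same number of top-scoring peaks taken from every list the direction turned, to a K27M-Tag minus WT-Tag difference of -1.18 FLAG peaks per Mb (exact p = 0.1) and of -0.27 H3K4me3 peaks per Mb (exact p = 0.2). That cut removes the difference in list length by construction. The values therefore show only what share of the kept peaks is distal.

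Distal FLAG peaks were also wider in K27M-Tag. Their median width was 386, 388 and 393 bp in the K27M-Tag lists and 268, 312 and 305 bp in the WT-Tag lists. The groups did not overlap, and the widths were close to those of the rest, which averaged 387 and 293 bp. Together, number and width put 24.3 ± 5.13 kb of every distal Mb under FLAG peaks in K27M-Tag and 10.2 ± 2.62 kb in WT-Tag, a ratio of 2.39 (2.56 in the rest). Distal H3K4me3 peaks had median widths of 894.5, 815 and 802 bp in K27M-Tag against 788, 846.5 and 846.5 bp in WT-Tag, and these ranges overlapped (exact p = 0.8). H3K4me3 covered 24.2 ± 1.08 and 20.9 ± 0.730 kb per distal Mb.

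Set against the rest of the same chromosomes, the distal windows were denser in every culture and for both antibodies. The distal to rest ratio of FLAG density was 1.38, 1.40 and 1.34 in K27M-Tag against 1.56, 1.47 and 1.42 in WT-Tag. For H3K4me3 it was 1.40, 1.39 and 1.38 in K27M-Tag against 1.44, 1.43 and 1.41 in WT-Tag. The mean log2 ratio over 6 cultures was 0.51 for FLAG and 0.49 for H3K4me3, positive in 6 of 6 cultures for each (exact sign-flip permutation test, p = 0.031, the smallest possible and unchanged by adjustment over 8 such tests). All cultures share the same windows and sequence content. This p therefore concerns agreement between cultures and not whether chromosome ends in general are denser. The size of the excess, and for FLAG also its sign, depended on how chromosomes were weighted. By their mean log2 ratio, 13 ends lay above the rest of their chromosome in H3K4me3 and 11 in FLAG. When each chromosome counts the same, the mean log2 ratio was -0.13 for FLAG (exact p = 0.063) and 0.12 for H3K4me3 (exact p = 0.031). Leaving out chromosomes 11 and 15, a choice made after seeing the data, gave 0.15 for FLAG and 0.26 for H3K4me3.

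The pooled excess in peak density was smaller in K27M-Tag than in WT-Tag for both antibodies, with no overlap between the groups. The K27M-Tag minus WT-Tag difference of the log2 ratio was -0.11 for FLAG (exact permutation p = 0.1, adjusted p = 0.138) and -0.04 for H3K4me3 (exact p = 0.1, adjusted p = 0.138). The FLAG difference was -0.05 with chromosomes 11 and 15 left out (exact p = 0.4) and -0.07 with WT-Tag replicate 1 left out (exact p = 0.1). Put as genotype ratios, K27M-Tag had 1.65 times the FLAG density of WT-Tag in distal windows and 1.77 times in the rest, and 1.12 and 1.15 times the H3K4me3 density. Averaged over 19 chromosomes with equal weight the FLAG difference was 0.22 (exact p = 0.1), the opposite direction, which the account by chromosome below breaks down. The H3K4me3 difference was 0.01 on that average (exact p = 0.8). In the better-scoring 50% of peaks the pooled H3K4me3 difference was 0.0036 (exact p = 0.8), and that of FLAG -0.11 (exact p = 0.2). For covered length the H3K4me3 difference was -0.01, with overlap between the groups (exact p = 0.2). That of FLAG was -0.11, with no overlap (exact p = 0.1).

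**Figure D1:**
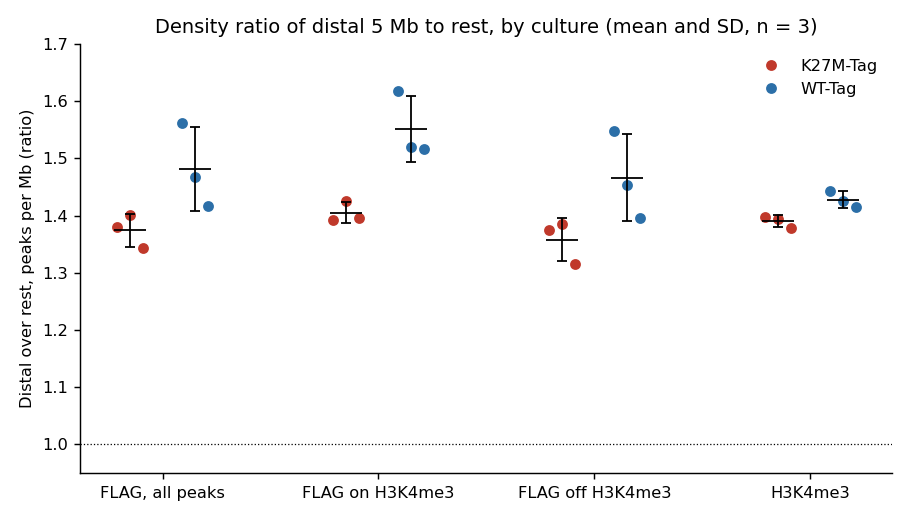
Density of peaks in the distal 5 Mb over that in the rest of the same chromosomes (y axis, ratio), 1 point per culture, for all FLAG peaks, FLAG peaks on and off H3K4me3 peaks of the same culture, and H3K4me3 peaks. Bars give the mean and SD (n = 3), the y axis starts just under 1, and all 24 points lie above 1.

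FLAG peaks that overlap an H3K4me3 peak of the same culture by at least 1 bp carried most of the genotype difference in number. In the distal windows they made up 34.9%, 37.1% and 35.7% of FLAG peaks in K27M-Tag against 20.4%, 19.6% and 18.8% in WT-Tag. Their density was 14.8 ± 2.54 against 4.91 ± 0.657 per Mb, a ratio of 3.02 with no overlap between groups (exact p = 0.1). The density of distal FLAG peaks off H3K4me3 was 28.4, 20.5 and 30.8 per Mb in K27M-Tag against 16.4, 22.5 and 21.8 in WT-Tag. These groups overlapped, with a ratio of 1.31 (exact p = 0.3). In the rest the ratios were 3.32 on H3K4me3 and 1.41 off it. At equal list sizes the difference off H3K4me3 turned to -5.21 peaks per Mb (exact p = 0.1) while that on H3K4me3 stayed positive at 4.04.

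Overlap of FLAG and H3K4me3 peaks was slightly more frequent in the distal windows than in the rest. The distal share of FLAG peaks on H3K4me3 exceeded that of the rest by 0.30, 0.67 and 1.37 percentage points in K27M-Tag against by 0.72, 0.68 and 1.22 in WT-Tag. The mean of 0.83 points was positive in 6 of 6 cultures (exact sign-flip p = 0.031), and the genotypes did not differ in it beyond their spread (difference -0.09 points, exact p = 0.8). With 10 Mb windows the excess was 0.04 points (exact p = 0.844). Seen from H3K4me3, 56.1% ± 6.42 of distal H3K4me3 peaks held a FLAG peak in K27M-Tag against 24.6% ± 2.86 in WT-Tag, against 54.8% and 22.4% in the rest. That distal excess averaged 1.73 points, again in 6 of 6 cultures (exact sign-flip p = 0.031). It was -0.17 points with 1 Mb windows (exact p = 0.75) and -0.68 points with 2 Mb windows (exact p = 0.5625). Peaks of both antibodies covered more of the distal windows than of the rest. Over 6 lists the means were 22.5 and 16.1 kb per Mb for H3K4me3, and 17.3 and 11.8 for FLAG. The part of this coverage in the overlap excess was not tested.

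Walking inward from the ends, the distal 5 Mb did not stand alone. Pooled over the autosomes, FLAG density was 41.4 per Mb at 0 to 5 Mb in K27M-Tag, 40.7 at 5 to 10 Mb, 33.1 at 10 to 15 Mb, and 44.9 at 20 to 25 Mb, the densest of 12 bins. WT-Tag followed the same course at 25.1, 24.4, 17.9 and 27.8 per Mb. H3K4me3 density was 20.2 and 18.2 per Mb in the distal bin of the 2 genotypes and 21.5 and 19.1 at 20 to 25 Mb. The first 5 Mb at the centromeric end were sparser, with 25.6 FLAG peaks per Mb in K27M-Tag against 15.8 in WT-Tag, and 13.6 and 12.2 H3K4me3 peaks. Within the distal window the outermost Mb was the sparsest, with 32.9 and 20.6 FLAG and 16.3 and 15.4 H3K4me3 peaks per Mb. The innermost Mb was the densest in FLAG, with 48.1 and 27.8 peaks per Mb, and held 23.2 and 19.1 H3K4me3 peaks.

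**Figure D2:**
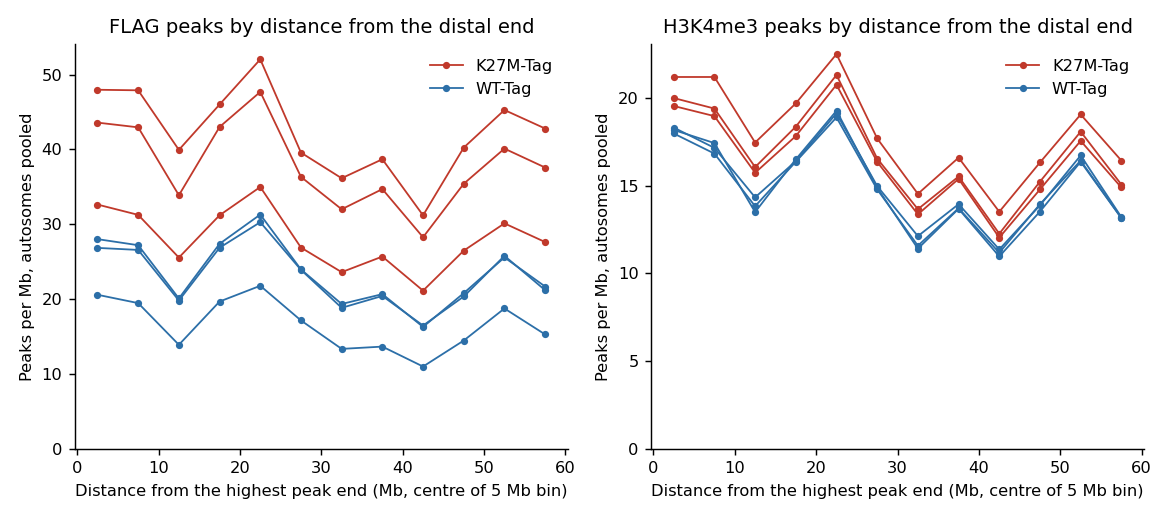
Peaks per Mb (y axis) by distance from the highest peak end (x axis, Mb, 5 Mb bins), autosomes pooled, 1 line per culture, FLAG left and H3K4me3 right. In all 12 lists the profile is high in the first 2 bins, dips at 10 to 15 Mb and is highest at 20 to 25 Mb, and the 3 K27M-Tag lines lie above the 3 WT-Tag lines in every bin.

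Chromosome ends differed far more from each other than the genotypes did. Averaged over 6 cultures, H3K4me3 density in the distal window was 4.11 times that of the rest on chromosome 15, 2.19 times on chromosome 10 and 2.05 times on chromosomes 4 and 11, the 4 highest. It was 0.17 times on chromosome 18, 0.28 times on chromosome 3 and 0.31 times on chromosome 17, the 3 lowest. FLAG gave nearly the same order, with 3.86 times on chromosome 15, 2.92 on chromosome 11 and 2.54 on chromosome 10, and 0.11 on chromosome 18, 0.21 on chromosome 13 and 0.22 on chromosomes 3 and 17. By their mean log2 ratio, 13 ends lay above the rest of their chromosome in H3K4me3 and 11 in FLAG, and 17 of 19 were on the same side in both. Across the 19 ends the log2 ratios of both antibodies had a Pearson r of 0.97, a description of windows that share libraries and sequence content. The exceptions were chromosomes 6 and 14, above the rest in H3K4me3 and below it in FLAG.

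**Figure D3:**
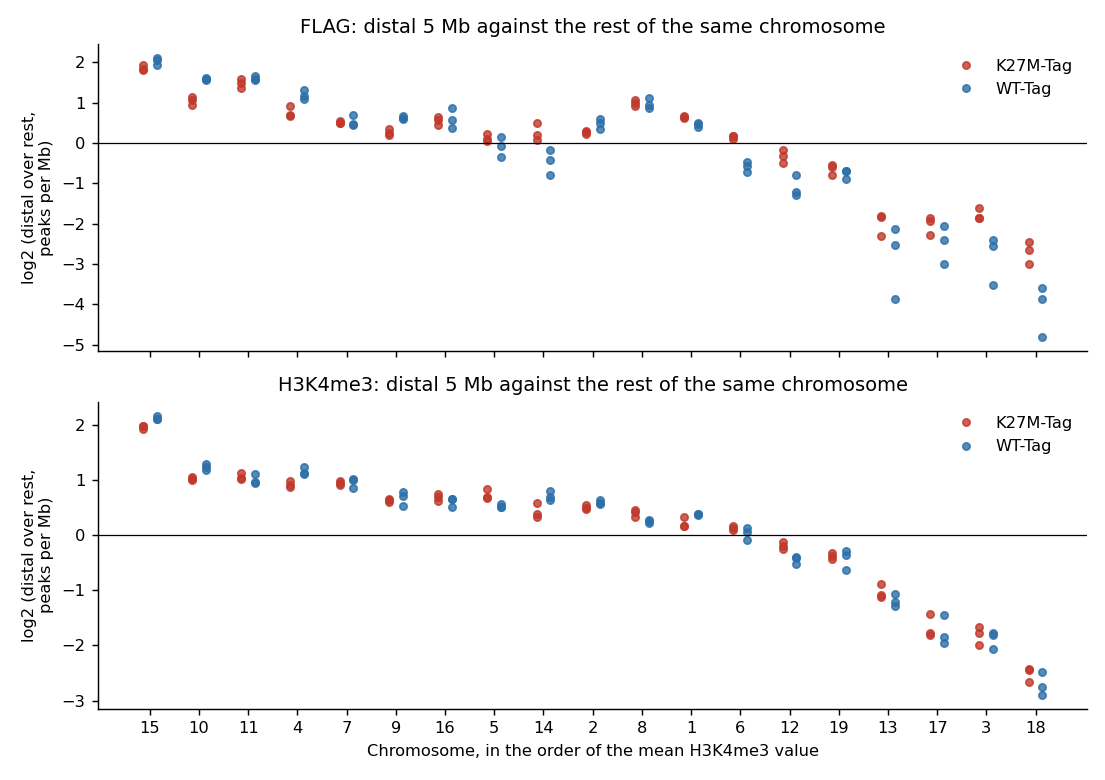
Log2 of the distal to rest density ratio (y axis) for each autosome (x axis, ordered by the mean H3K4me3 value), 1 point per culture, FLAG above and H3K4me3 below. Chromosome 15 lies highest and chromosome 18 lowest in both panels, and at the sparse ends on the right most WT-Tag points lie under the K27M-Tag points in FLAG.

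The end of chromosome 15 (mm9, chr15:98457925-103457924) was the densest relative to its chromosome. It held 565, 428 and 613 FLAG peaks in K27M-Tag against 301, 421 and 376 in WT-Tag, and 261, 258 and 277 against 258, 250 and 246 H3K4me3 peaks. Among the 20 windows of its chromosome it ranked first for both antibodies. In the gene order of GRCm38, a later build used here for names only, this end closes with Nckap1l, an actin regulator of blood cells, Pde1b, a cyclic nucleotide phosphodiesterase, Ppp1r1a, an inhibitor of protein phosphatase 1, and the mucin-like genes Glycam1 and Mucl2.

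The end of chromosome 11 (chr11:116843857-121843856) held the most FLAG peaks of any distal window, 735, 580 and 737 in K27M-Tag against 389, 522 and 499 in WT-Tag. The groups did not overlap. Its H3K4me3 peaks numbered 232, 213 and 233 against 209, 190 and 190. It ranked first of 23 windows on its chromosome for FLAG and second for H3K4me3. Its last genes in the GRCm38 order include Tbcd, a tubulin-folding cofactor, and Metrnl, a secreted factor. Together chromosomes 11 and 15 held 31.2% ± 1.46 of distal FLAG peaks in K27M-Tag against 35.0% ± 0.612 in WT-Tag, and 25.5% and 26.0% of distal H3K4me3 peaks.

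The end of chromosome 10 (chr10:124980879-129980878) held 325, 253 and 342 FLAG peaks in K27M-Tag against 188, 249 and 255 in WT-Tag, and these ranges overlapped. Its H3K4me3 peaks were nearly as many in both genotypes, 144, 146 and 152 against 143, 143 and 151. The GRCm38 order closes there with the vomeronasal receptor genes Vmn2r84 to Vmn2r87 outside Neurod4, a transcription factor of neuronal differentiation. The outermost Mb of this end was sparse and the next 3 Mb were dense, as the map of 1 Mb bins shows. Chromosome 4 (chr4:150628940-155628939) was another dense end, at 2.05 times the H3K4me3 density and 2.00 times the FLAG density of its rest.

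At the sparse end of the range, the window of chromosome 18 held 19, 18 and 32 FLAG peaks in K27M-Tag against 2, 7 and 6 in WT-Tag. Its H3K4me3 peaks numbered 13, 11 and 14 against 8, 11 and 9, the lowest count of any window of that chromosome. On chromosome 3 the window held 37, 28 and 51 FLAG peaks in K27M-Tag against 4, 14 and 12 in WT-Tag, and 20, 16 and 20 against 13, 16 and 16 H3K4me3 peaks. Its last genes in GRCm38 include Lrrc7, a postsynaptic scaffold gene, Rpe65, the retinoid isomerase of the eye, and Wls, which carries Wnt proteins to the cell surface. Chromosome 13 held 37, 20 and 45 FLAG peaks in K27M-Tag against 3, 16 and 12 in WT-Tag, with 32, 36 and 33 against 26, 29 and 25 H3K4me3 peaks. FLAG counts of the genotypes did not overlap at these 3 ends, on few peaks, as at 16 of the 19 ends (79.2% of all windows). Chromosome 17 held 50, 28 and 54 FLAG peaks against 11, 30 and 23, which overlapped.

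**Figure D4:**
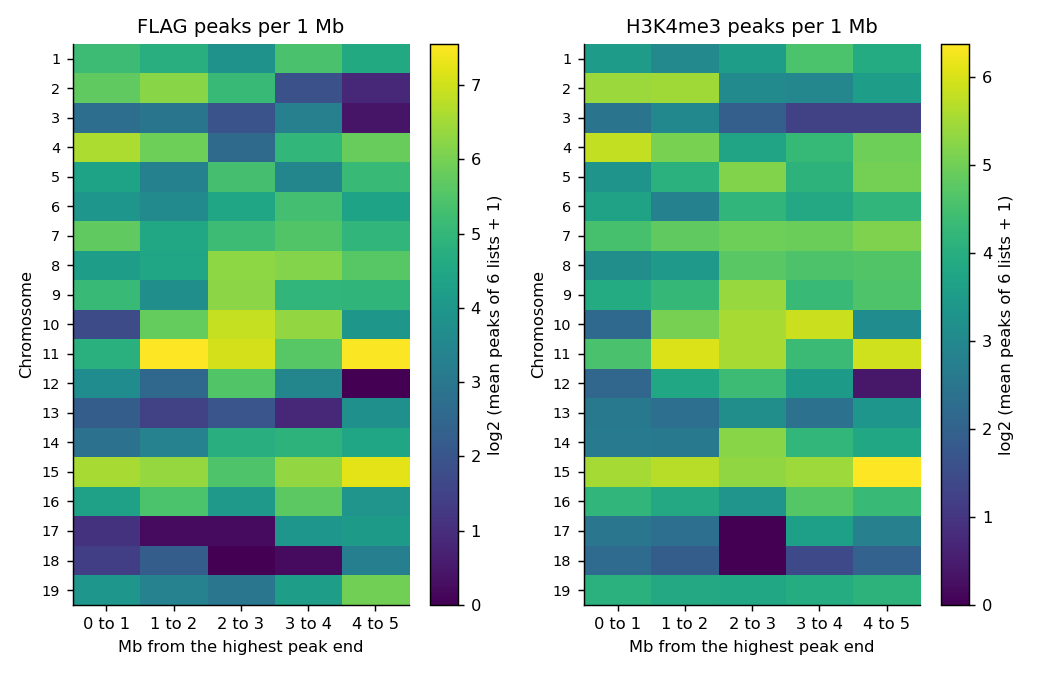
Mean number of peaks over 6 lists in each 1 Mb bin of the distal windows, as log2 of the mean plus 1 (colour), by chromosome (y axis) and distance from the highest peak end (x axis, Mb), FLAG left and H3K4me3 right. Dark bins at chromosomes 3, 12, 17 and 18 held almost no peaks of either antibody, and bright bins lie at chromosomes 11 and 15.

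Density also varied inside the windows. The richest bin of 1 Mb for FLAG was the second from the end of chromosome 11, with 187 peaks on average and 136 to 226 in single lists. For H3K4me3 it was the innermost of chromosome 15, with 81.8 peaks on average and 79 to 85 in single lists. Of 95 bins, 2 held no FLAG peak in any list, the innermost of chromosome 12 and the one at 2 to 3 Mb of chromosome 18, and 18 held none in at least 1 list. For H3K4me3, 2 bins were empty in all lists, those at 2 to 3 Mb on chromosomes 17 and 18.

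The genotype difference in FLAG was tested for every 5 Mb window of the autosomes with limma (472 windows, Benjamini-Hochberg adjustment, threshold 0.05). Of 19 distal windows, 16 were higher in K27M-Tag and 0 lower, against 79.0% higher and 0.212% lower of all windows, so the distal windows were called about as often as the others. Their median log2 change was 0.90 and that of all windows 1.00. The 3 that did not pass were the dense ends of chromosome 4 (log2 0.32, adjusted p = 0.214), chromosome 9 (0.49, adjusted p = 0.0705) and chromosome 10 (0.41, adjusted p = 0.11). The largest changes were at sparse ends, log2 2.07 on chromosome 18 (SE 0.440, adjusted p = 6.92e-05) and 1.96 on chromosome 3 (SE 0.490, adjusted p = 0.000516). Leaving out K27M-Tag replicate 1 changed the count of 16 to 7 and leaving out replicate 3 changed it to 8. Over all 472 windows the count of 373 became 176 and 209. Equal list sizes gave 7 higher and 5 lower, against 156 and 79 of all 472 windows. Distal windows lower at an unadjusted p under 0.05 also numbered 0.

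Relative to the length of each list, the distal windows split by their density. In the same fit with every list centred on its number of autosomal peaks, 7 distal windows were higher in K27M-Tag (background 38.3%) and 6 lower (background 19.5%). Higher were chromosomes 1, 3, 6, 12, 13, 14 and 18, with log2 changes from 0.29 on chromosome 1 to 1.26 on chromosome 18. Lower were chromosomes 2, 4, 9, 10, 11 and 15, from -0.20 on chromosome 2 to -0.49 on chromosome 4. Across the 19 distal windows, this change and log2 H3K4me3 peaks had an r of -0.86. Across all other windows of the autosomes r was -0.47. Both are descriptions over windows that share the same libraries, and the sparse windows hold few FLAG peaks.

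**Figure D5:**
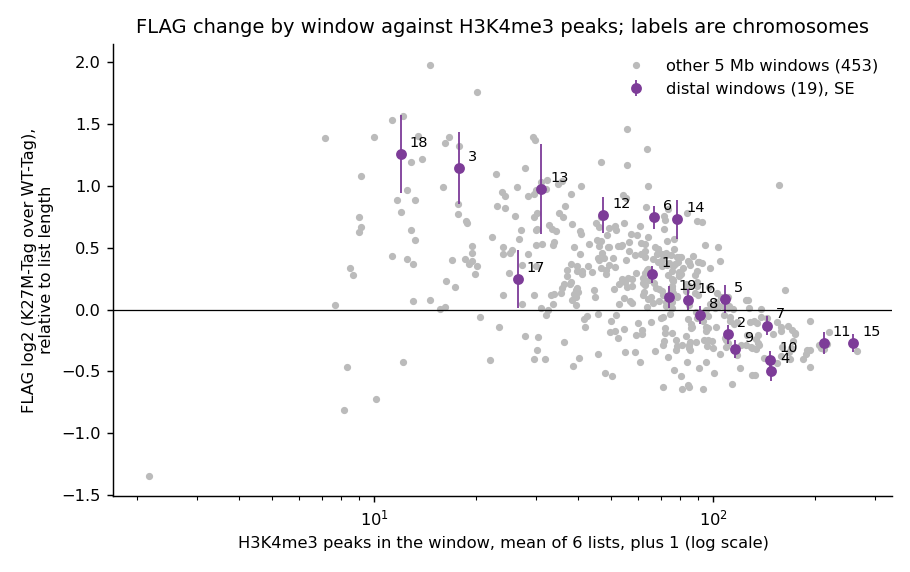
FLAG log2 change between genotypes relative to list length (y axis, K27M-Tag over WT-Tag) against H3K4me3 peaks in the window (x axis, log scale, mean of 6 lists plus 1). Purple points are the 19 distal windows with SE, labelled by chromosome, and grey points all other windows; the distal windows run from 1.26 on sparse chromosome 18 to -0.49 on dense chromosome 4.

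For H3K4me3, 12 of 19 distal windows were higher in K27M-Tag and 0 lower in the limma fit (background 58.3% and 0), with a median log2 change of 0.21. The largest were chromosome 12 (0.46, SE 0.0905, adjusted p = 1.62e-05), with 51, 51 and 60 peaks against 40, 38 and 39, and chromosome 18 (0.41, adjusted p = 0.0152). Leaving out replicate 1 of either genotype gave 6 higher and leaving out K27M-Tag replicate 3 gave 7. Over all 472 windows the count of 275 became 151 and 132 without K27M-Tag or WT-Tag replicate 1. Without K27M-Tag replicate 3 it was 161. Equal list sizes gave 0 higher and 1 lower, against 8 and 7 of all windows. At an unadjusted p under 0.05, 0 distal windows were lower, too. Relative to list length, chromosomes 5 and 12 were higher (2 windows, background 7.63%) and chromosomes 4, 10, 14 and 15 lower (4 windows, background 5.51%). Without K27M-Tag replicate 1 or 2 these counts were 0 and 2, and without WT-Tag replicate 3 they were 0 and 3. They were 1 and 3 without K27M-Tag replicate 3 or WT-Tag replicate 2. Over all windows the counts of 36 and 26 became 9 and 8 without K27M-Tag replicate 1 and 16 and 10 without replicate 2. They were 10 and 10 without WT-Tag replicate 3, and 17 and 15 without K27M-Tag replicate 3. Without WT-Tag replicate 2 they were 26 and 23.

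Whether the genotype ratio of an end differs from that of its own chromosome was tested in a limma fit over the 19 log2 ratios. For FLAG, 4 ends were relatively higher in K27M-Tag (21.1% of the 19) and 4 lower (21.1%). This fit holds the ends only, so no share over other windows stands beside its counts. Higher were chromosome 3 (log2 difference 0.98, SE 0.326, adjusted p = 0.0154), chromosome 6 (0.73, SE 0.121, adjusted p = 2.53e-05), chromosome 12 (0.75) and chromosome 14 (0.70). On chromosome 6 the distal to rest ratio was 1.13, 1.07 and 1.12 in K27M-Tag against 0.61, 0.72 and 0.67 in WT-Tag, so the end was denser than its chromosome in one genotype and sparser in the other. Lower were chromosome 4 (-0.43), chromosome 9 (-0.36), chromosome 10 (-0.54, SE 0.0746, adjusted p = 2.15e-06) and chromosome 15 (-0.18, adjusted p = 0.0207). The call on chromosome 3 was lost with any single K27M-Tag library left out (0.91 to 1.03, adjusted p = 0.0512 to 0.111). That on chromosome 15 was lost with K27M-Tag replicate 1 left out (-0.17, adjusted p = 0.122), with WT-Tag replicate 1 left out (-0.15, adjusted p = 0.121) and with WT-Tag replicate 2 left out (-0.17, adjusted p = 0.0987). With WT-Tag replicate 1 left out, 7 ends were higher. The ends with called differences thus went in both directions, the dense ones lower and the sparser ones higher.

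For H3K4me3 the same fit called 2 ends higher in K27M-Tag (10.5%), chromosomes 5 (0.21) and 12 (0.24), and 4 lower (21.1%), chromosomes 4 (-0.23), 10 (-0.21), 14 (-0.28) and 15 (-0.16). These H3K4me3 calls depend on the processing. Equal list sizes gave 0 higher and 2 lower, covered bases 4 and 1, and the better-scoring 50% of peaks 6 and 6, where chromosome 15 turned to 0.07 (adjusted p = 0.0714). With K27M-Tag replicate 1 or 3 or WT-Tag replicate 2 left out, 1 end was higher: the call on chromosome 5 was lost in the first case and that on chromosome 12 in the others. As counted in full lists, chromosomes 4, 10 and 15 were lower and chromosome 12 higher for both antibodies. Chromosome 14 went in opposite directions, with 122, 96 and 188 distal FLAG peaks in K27M-Tag against 27, 60 and 52 in WT-Tag, but 73, 67 and 89 against 76, 84 and 76 H3K4me3 peaks. Its last genes in GRCm38 include Fgf14, a regulator of neuronal sodium channels, and Nalcn, a sodium leak channel.

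Pooled, the ends poor in H3K4me3 showed the larger FLAG ratio between genotypes. At the 6 ends below their chromosome in H3K4me3 (3, 12, 13, 17, 18 and 19), FLAG density was 13.0 ± 3.34 per Mb in K27M-Tag against 5.23 ± 1.44 in WT-Tag, a ratio of 2.49, against 1.86 in the rest of these chromosomes. At the other 13 ends it was 54.5 ± 10.0 and 34.3 ± 5.18 per Mb, a ratio of 1.59 against 1.74. The share of FLAG peaks on H3K4me3 was 34.1% and 16.1% at the poor ends and 36.1% and 19.8% at the others. Single ends did not all follow this split. The FLAG ratio was 3.87, 3.125, 3.29 and 4.60 on chromosomes 3, 12, 13 and 18, but 2.06 on chromosome 17 and 1.89 on chromosome 19. At the other ends it reached 2.97 on chromosome 6 and 2.92 on chromosome 14. This grouping was made after seeing the data and is given without a test. FLAG varied less between ends in K27M-Tag: the SD over 19 ends of the log2 distal to rest ratio was 1.28, 1.32 and 1.17 in K27M-Tag against 1.96, 1.5 and 1.59 in WT-Tag. The groups did not overlap (exact p = 0.1), also at equal list sizes (1.32 ± 0.120 against 1.71 ± 0.238, exact p = 0.1).

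Joining the 6 lists of an antibody wherever peaks touch gave 6228 distal FLAG regions. Of these, 691 (11.1%) were in all 6 lists, 564 (9.06%) only in all 3 K27M-Tag lists and 40 (0.642%) only in all 3 WT-Tag lists, against 10.2%, 9.94% and 0.584% in the rest. Of the K27M-Tag-only regions 60.6% overlapped an H3K4me3 region and of the WT-Tag-only regions 2.50%, near the shares of 60.4% and 3.11% in the rest. Of 2188 distal H3K4me3 regions, 1213 (55.4%) were in all 6 lists, 81 (3.70%) only in K27M-Tag and 3 (0.137%) only in WT-Tag, against 52.5%, 4.45% and 0.274% in the rest. At equal list sizes the FLAG counts were 204 and 105 and the H3K4me3 counts 46 and 8. Leaving out a library loosens the rule for its group. The K27M-Tag-only FLAG count was 1049 when K27M-Tag replicate 2 was left out. The WT-Tag-only FLAG count was 127, 78 and 82 with WT-Tag replicate 1, 2 or 3 left out and 69 with K27M-Tag replicate 3 left out. The K27M-Tag-only H3K4me3 count was 139 when K27M-Tag replicate 2 was dropped and 122 for WT-Tag replicate 2. The WT-Tag-only H3K4me3 count of 3 was 12, 6 and 8 with WT-Tag replicate 1, 2 or 3 dropped, and 5 and 15 with K27M-Tag replicate 1 or 3 dropped.

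The distal FLAG region that ranked highest by score in all 6 lists lay at chr4:151599848-151602839, 4.03 Mb from the end. Its enrichment over local background was 11.7, 8.05 and 9.70 in K27M-Tag against 5.78, 12.8 and 6.58 in WT-Tag, with overlap between the groups. It was at or above the 99.2 percentile of score in every list and overlapped H3K4me3. The second, chr7:152112714-152123432, was also among the broadest, with 9313, 8508 and 9828 bp in K27M-Tag against 6746, 8832 and 8583 bp in WT-Tag, which overlapped. The broadest distal H3K4me3 regions include one that starts inside it, chr7:152118446-152129801, with 9495 to 11153 bp in the 6 lists. In the GRCm38 order chromosome 7 closes with Ccnd1, the cyclin D1 gene, Tpcn2, a lysosomal channel, and the sensory receptors Mrgprf and Mrgprd.

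The broadest distal FLAG region, chr11:117169718-117181117, covered 10708, 10069 and 11321 bp in K27M-Tag against 6870, 7956 and 6422 bp in WT-Tag. Every K27M-Tag value was above every WT-Tag value (log2 0.60, SE 0.101, adjusted p = 0.00304 by limma). With each list centred on its median breadth the change was -0.31 (adjusted p = 0.148 by limma), the opposite direction and past no threshold. Another, chr15:101927649-101935476, covered 7651, 7461 and 7451 bp against 3505, 3398 and 3534 bp. The broadest distal H3K4me3 region, chr11:120090128-120102759, covered 12206, 11937 and 12247 bp in K27M-Tag against 12108, 12196 and 11768 bp in WT-Tag, with no separation (log2 0.01, adjusted p = 0.835). The highest by score, chr10:126557323-126558664, had enrichments of 53.0, 60.7 and 48.1 in K27M-Tag against 46.1, 64.7 and 58.9 in WT-Tag, and it did not overlap FLAG.

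Among regions found only in K27M-Tag, the leading FLAG one was chr6:145811922-145813262, with 1211, 1114 and 1200 bp and enrichments of 7.88, 8.03 and 8.72, on an H3K4me3 region. The next, chr15:100028582-100030425, covered 1597, 1793 and 1708 bp. The first 5 of these covered 780 to 1793 bp in the K27M-Tag lists, and the first 5 found only in WT-Tag covered 216 to 698 bp in the WT-Tag lists. The latter were led by chr10:126735630-126736039 with 307, 324 and 410 bp and enrichments of 5.87, 5.15 and 7.63, off H3K4me3. None of the leading 5 WT-Tag-only FLAG regions overlapped an H3K4me3 region and all 5 leading K27M-Tag-only ones did. The leading H3K4me3 region of K27M-Tag only, chr11:116855306-116855845, covered 513, 486 and 523 bp at the 42.5, 40.2 and 47.2 percentile of score. The 3 H3K4me3 regions of WT-Tag only, on chromosomes 15, 10 and 4, covered 190 to 381 bp.

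Breadth was compared with limma at regions present in all 6 lists (11980 FLAG and 22592 H3K4me3 regions). Of 691 distal FLAG regions, 308 were wider in K27M-Tag (background 43.1%) and 3 narrower (background 0.618%). The median log2 change was 0.81, as over all regions. Centring each list on its median left 50 wider (background 8.13%) and 84 narrower (background 11.5%). The widest change was at chr11:117094399-117098013, with 3106, 1962 and 2015 bp in K27M-Tag against 234, 249 and 287 bp in WT-Tag (log2 3.17, SE 0.310, adjusted p = 0.000964). At chr12:118388962-118391189 FLAG covered 2009, 1634 and 1843 bp against 176, 220 and 243 bp (log2 3.11, adjusted p = 0.000964). Both overlapped H3K4me3. The 3 narrower regions lay on chromosomes 2 and 4 and did not overlap H3K4me3; at chr2:179769930-179772192 FLAG covered 484, 224 and 840 bp against 1248, 1458 and 1372 bp (log2 -1.59, adjusted p = 0.0215). Leaving out K27M-Tag replicate 1 changed the count of 308 to 172 and leaving out replicate 3 changed it to 160. Over all regions the count of 5169 became 2812 and 2682. The count of 3 became 10 with WT-Tag replicate 1 left out, 5 with K27M-Tag replicate 2 left out, and 1 with K27M-Tag replicate 1 or WT-Tag replicate 2 or 3 left out.

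Of 1213 distal H3K4me3 regions, 86 were wider in K27M-Tag (background 7.56%) and 6 narrower (background 0.549%), and centring left 21 wider (background 1.97%) and 11 narrower (background 1.13%). The widest change was at chr12:120085053-120089243, with 4135, 4178 and 3493 bp in K27M-Tag against 542, 680 and 893 bp in WT-Tag (log2 2.51, SE 0.175, adjusted p = 0.00262), where no FLAG region overlapped. In the GRCm38 order the end of chromosome 12 holds Sp4 and Sp8, zinc-finger transcription factors, and the integrin gene Itgb8. The largest narrowing was at chr15:102829369-102830242, with 488, 398 and 305 bp against 615, 828 and 874 bp (log2 -0.97, adjusted p = 0.046). Leaving out K27M-Tag replicate 1, 2 or 3 changed the count of 86 to 4, 28 and 6, and leaving out WT-Tag replicate 1 or 3 changed it to 57 and 37. Over all regions the count of 1709 became 74, 597 and 158, and 1194 and 798. The count of 6 became 0, 2 and 2 with K27M-Tag replicate 1, 2 or 3 left out, and 3 and 0 with WT-Tag replicate 1 or 3 left out.

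Summit height was also compared. The share of distal FLAG peaks whose summit reached at least 10 times the background coverage was 10.9%, 8.00% and 9.28% in K27M-Tag against 3.99%, 3.91% and 3.8% in WT-Tag. The groups were apart, as in the rest of the chromosomes (8.02% ± 1.5 against 2.84% ± 0.149). For distal H3K4me3 peaks these shares were 61.5% ± 3.25 and 65.7% ± 1.84, with overlap. The median score percentile of distal peaks within their own list lay between 48.7 and 51.8 in the 12 lists, so distal peaks were of ordinary rank.

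The outermost peak, which fixes each window, was credited to an H3K4me3 list on 13 chromosomes and to a FLAG list on 6, and to a K27M-Tag culture on 16 and a WT-Tag culture on 3. Ties were credited to 1 list. On chromosome 19 H3K4me3 lists of both genotypes tied, and on chromosome 11 K27M-Tag lists of both antibodies. All 12 lists reached within 100 kb of the outermost peak on 4 chromosomes. On 6 chromosomes at least 1 list ended over 500 kb inside. The farthest were a FLAG list of K27M-Tag replicate 2 on chromosome 17, 3414 kb inside, one of WT-Tag replicate 1 on chromosome 13, 2444 kb inside, and one of WT-Tag replicate 3 on chromosome 3, 1854 kb inside. These 3 are sparse ends, where a single FLAG peak decides how far a list reaches.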

How the data were processed

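Peaks from 12 ChIP-seq libraries of 6 cultures were used; 2 composite input samples, 1 per genotype, were not analysed here. The submitters' processing notes name BWA 0.7.17-r1188, MACS2 2.2.7.1, bedtools 2.29.2 and the builds mm9 and dm6. The notes give no role or threshold. The H3K4me3 libraries carry Drosophila spike-in chromatin per the labels' protocols, but no value here is scaled by it. Peaks were deposited per library, without pooling, so the number and width of calls move with each library's depth and control. The deposited score was used by rank only. The deposited fold is a ratio of summit to local background. The deposited −log10 p and −log10 q are the authors' values, with a lowest −log10 q between 2 and 2.05 in every list.

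Background coverage and summit pileup were recovered from fold and p as pileup plus 1 over background plus 1 and a Poisson tail, within a relative error of 0.0001. Genotype tests were exact permutation tests, two-sided, and limma 3.58.1 (R 4.3.3, moderated, with trend) on log2 of peaks per window plus 1, on log2 density ratios with 0.5 added to counts, or on log2 covered bases. Windows were 5 Mb, counted inward from the highest peak end. Other steps used Python 3.11.15 with numpy 2.4.6 and pandas 2.3.3.

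The rule for names took the 3 highest and 3 lowest chromosomes per antibody and up to 5 regions per class, ranked by their lowest score percentile over the lists, mean breadth or change in breadth. Chromosomes 4, 6, 9, 12 and 14 and the other ends named were added because a test called them or they bear on a count. The members and lists were chosen with earlier results of these data known. Gene names come from the GRCm38.p6 order of genes and were not joined to peaks, since that build differs from mm9.

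On simulated data with 100 of 472 windows changed 1.5-fold, the window fit recovered 92.0% for FLAG and 78.0% for H3K4me3. These window counts were Poisson draws with the known list lengths taken out, so they held no further spread between cultures. The recovery on the real lists, which differ in length and between cultures, is therefore not known from them. With 200 of 22592 H3K4me3 regions widened 2-fold the breadth fit recovered 79.0% of the 200. With 200 of 11980 FLAG regions widened it recovered 0.5% of 2-fold and 65.0% of 4-fold changes. These simulated regions held no shift shared by all regions. In the real lists the median log2 change was 0.81 for FLAG and 0.14 for H3K4me3, so recovery there is not known from them either. Alternatives were higher score or q limits, equal list sizes, windows of 1, 2 and 10 Mb, joined peaks, other pseudocounts, a filter on windows under 10 peaks, covered bases, centring, leaving out each library, and a replicate block.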

Additional observations from a re-analysis of the deposited data

Results flagged for a closer look

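A test of the difference itself found 14 results in which the genotype effect at a chromosome end differed from that on the rest of the same chromosome. They are given as the K27M-Tag minus WT-Tag difference of the log2 distal to rest density ratio (limma over 19 chromosomes, Benjamini-Hochberg adjustment). For FLAG it was 0.98 on chromosome 3, 0.73 on chromosome 6, 0.75 on chromosome 12 and 0.70 on chromosome 14. It was -0.43 on chromosome 4, -0.36 on chromosome 9, -0.54 on chromosome 10 and -0.18 on chromosome 15. For H3K4me3 it was 0.21 on chromosome 5 and 0.24 on chromosome 12. It was -0.23 on chromosome 4, -0.21 on chromosome 10, -0.28 on chromosome 14 and -0.16 on chromosome 15. The fit holds the ends only, so whether ends depart from their chromosome more often than other windows was not tested. Departures were common elsewhere. In the window fit with every list centred on its number of autosomal peaks, 38.3% of all FLAG windows were higher and 19.5% lower. For H3K4me3 these shares were 7.63% and 5.51%. Groups of 3 libraries are too small for a search for single outlying samples. The FLAG calls on chromosomes 3 and 15 and the H3K4me3 calls on chromosomes 5 and 12 were lost when 1 library was left out, and 5 of the 6 H3K4me3 calls were lost under equal list sizes, covered bases or the better-scoring 50% of peaks.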

How the results depend on the processing

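The limits of these lists are that calls end where each list's own values reach the caller's limit, that no read totals or spike-in factors were used, and that 3 cultures a group cannot give an exact p under 0.1. The direction of the distal excess in all 6 cultures held for H3K4me3 under every setting tried and for FLAG under all but equal weights for chromosomes. Where a value below turned or moved, the cause was not tested unless the setting itself uses fewer lists, peaks or cultures.

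Turned values, as K27M-Tag minus WT-Tag unless stated, were as follows. At equal list sizes, distal density was -1.18 (FLAG), -0.27 (H3K4me3) and -5.21 (FLAG off H3K4me3), and the distal excess of FLAG overlap with H3K4me3 was 1.34 points. With equal weights for 19 chromosomes, the log2 ratio difference was 0.22 (FLAG), 0.267 (FLAG covered length), 0.136 (on H3K4me3), 0.22 (off), 0.00819 (H3K4me3) and 0.00768 (its covered length), and the ratio over all cultures was -0.13 (FLAG), -0.20 (covered length), -0.0638 (on) and -0.16 (off). In the better-scoring 50% of peaks it was 0.00359 (H3K4me3), 0.00837 (its covered length) and 0.0357 (FLAG on H3K4me3), with overlap excesses of 2.59 (FLAG) and 1.38 (H3K4me3) points and 0.066 for H3K4me3 on chromosome 15. A −log10 q of at least 5 gave a FLAG overlap excess of 0.91 points. Windows of 1 Mb gave 1.90 (FLAG) and 1.25 (H3K4me3), and 2 Mb gave 0.747 (FLAG). Windows of 10 Mb gave 0.0141 for H3K4me3 covered length and -8.33 bp for H3K4me3 width, and joined peaks gave -120 bp. Over all cultures the H3K4me3 overlap excess was -0.17 points at 1 Mb and -0.677 at 2 Mb.

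Calls lost over all cultures were the FLAG overlap excess in the better 50% (1.19 points), at −log10 q of at least 5 (1.19), and at 1, 2 and 10 Mb (2.34, 1.22 and 0.0354), the H3K4me3 excess at 10 Mb (0.791), and the FLAG ratio off H3K4me3 at 1 Mb (0.124).

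Counts that moved over 1.5 times, higher or wider and then lower or narrower in K27M-Tag, were these. Equal list sizes gave 7 and 5 FLAG windows, 0 and 1 H3K4me3 windows (centred 0 and 1), 0 and 2 H3K4me3 ends, 204 and 105 FLAG and 46 and 8 H3K4me3 genotype-specific regions. The better 50% gave 7 FLAG ends higher, 6 H3K4me3 ends higher, 4 and 2 centred H3K4me3 windows, breadth counts of 160 and 1 (FLAG) and 38 and 1 (H3K4me3), 330 FLAG regions in K27M-Tag only and 0 H3K4me3 regions in WT-Tag only. Covered bases gave 4 and 1 for centred H3K4me3 windows and for H3K4me3 ends. Centring breadth gave 50 and 84 (FLAG) and 21 and 11 (H3K4me3), and joined peaks 56 wider H3K4me3 regions.

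Leaving out 1 library gave 7 to 19 FLAG and 6 to 11 H3K4me3 windows higher, 0 to 2 higher and 2 to 4 lower centred H3K4me3 windows, 3 to 7 FLAG and 1 to 2 H3K4me3 ends higher, 160 to 369 wider and 1 to 10 narrower FLAG regions, 4 to 118 wider and 0 to 5 narrower H3K4me3 regions, 627 to 1049 and 50 to 127 FLAG and 96 to 139 and 4 to 15 H3K4me3 genotype-specific regions. Differences ranged from -0.386 to 0.151 points (FLAG overlap excess) and -18.5 to 27.8 bp (H3K4me3 width). With 5 cultures the sign-flip p cannot go below 0.063, and the log2 ratios ranged from 0.486 to 0.53 (FLAG), 0.487 to 0.501 (H3K4me3), 0.551 to 0.588 and 0.482 to 0.488 (covered length), 0.535 to 0.578 (on) and 0.469 to 0.516 (off), with overlap excesses of 0.717 to 0.932 and 1.49 to 1.89 points.

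No regular pairing of the cultures by replicate number was seen. Deviations of same-numbered lists had r of 0.16, -0.21 and 0.37 for FLAG and 0.05, 0.10 and -0.11 for H3K4me3. Differently numbered lists had r of -0.42 to 0.26 for FLAG and -0.19 to 0.14 for H3K4me3. So few values cannot show that a pairing is absent. With the replicate block, 13 distal H3K4me3 regions were wider in place of 86 and 11 distal FLAG windows higher in place of 16. Over all regions and windows these counts were 455 in place of 1709 and 274 in place of 373. The smallest exact p of the block is 0.25, and the other distal counts stayed within 1.5 times. The 2 largest wider and narrower breadth changes per antibody kept their calls under it except 1 wider (1.62, adjusted p = 0.0729) and 1 narrower (-0.97, adjusted p = 0.1) H3K4me3 region.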
